A study of Homo sapiens with 23 samples.

Results

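The clustered *HOX* genes are the 39 protein-coding genes of the *HOXA*, *HOXB*, *HOXC* and *HOXD* clusters, taken by symbol and matched to Ensembl identifiers in the 15 RNAseq count files. All 39 were found among the 57875 genes listed per sample, 11 in *HOXA*, 10 in *HOXB*, 9 in *HOXC* and 9 in *HOXD*. Of these, 31 passed the filter on low counts and were tested, and 8 were not. The study asked how steady state RNA changes when argonaute (AGO) proteins, which carry miRNAs to their targets, are lost from human cells.

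The cells were HCT116, an established human colorectal carcinoma line. RNA was measured in wild-type HCT116 cells and in lines labelled as *AGO1*, *AGO2*, *AGO1/2* (double) and *AGO1/2/3* (triple) knockouts, with 3 biological replicates of each of the 5 lines. The knockouts were made by CRISPR editing of the same parental cells, and the cells were grown without other treatment at passages 12 to 18. Each genotype is a single line, so the genotype and the line cannot be told apart. The p-values measure only the spread between replicates within lines, estimated over all 5 lines together. The series also holds 8 eCLIP samples, which were not analysed here.

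*HOX* genes encode homeodomain transcription factors that give cells their position along the body axis. They lie in 4 clusters, and genes with the same number in different clusters are paralogs: low numbers mark the anterior end and are switched on first, and high numbers mark the posterior end. In adult tissue the pattern is kept by Polycomb and Trithorax proteins, and adult colon epithelium keeps part of it. The clusters also hold miRNA genes of the miR-10 and miR-196 families, several of whose targets are *HOX* mRNAs. *HOXB8* is the textbook mammalian case of an mRNA cut by a miRNA: miR-196 pairs with its 3′-UTR along nearly its whole length, and AGO2 is the human AGO protein known for cutting a target.

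The sequences on which this pairing rests are shown first, since pairing of a miRNA with a 3′-UTR site is how AGO proteins find their targets. The mature miRNAs are given 5′ to 3′ from RefSeq (GRCh38.p14), with the seed, bases 2 to 8, in capitals. *MIR196A1* lies in the *HOXB* cluster (chr17:48632532-48632553, minus strand), *MIR196A2* in *HOXC* (chr12:53991762-53991783, plus strand), *MIR196B* in *HOXA* (chr7:27169528-27169549, minus strand) and *MIR10A* in *HOXB* (chr17:48579904-48579926, minus strand). miR-196a and miR-196b share a seed and miR-10a, a relative of miR-10b, has another.
hsa-miR-196a-5p: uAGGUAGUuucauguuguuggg
hsa-miR-196b-5p: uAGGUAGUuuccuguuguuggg
hsa-miR-10a-5p: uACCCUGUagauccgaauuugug

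Sites were searched on the sense strand of each gene's GENCODE v44 3′-UTR (hg38), taken from the transcript marked as Ensembl canonical. Other transcripts of a gene were not searched, so the counts of sites below hold for that transcript only. Windows of 22 bases are shown 5′ to 3′, and the capitals mark the 7 bases that face the seed. The *HOXB8* site is shown because it is the near-complete match, and the others because they are seed matches (ACTACCT) in members with enough reads to be tested. The *HOXB8* site lies at chr17:48612770-48612791 (minus strand), at base 411 of an 856-base 3′-UTR. The *HOXA7* window lies at chr7:27154430-27154451 and the *HOXA9* window at chr7:27163254-27163275, both on the minus strand. The *HOXB7* window lies at chr17:48607614-48607635 (minus strand) and the *HOXC8* window at chr12:54012231-54012252 (plus strand).
HOXB8 site: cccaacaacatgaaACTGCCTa
HOXA7 site 4: cctactcccctaaaACTACCTa
HOXA9 site 1: acaaaaggaaagaaACTACCTt
HOXB7 site 1: aacactgaaaaaatACTACCTa
HOXC8 site 2: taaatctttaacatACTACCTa

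The *HOXB8* window paired with miR-196a at 21 of 22 bases by Watson–Crick rules and at the remaining base, opposite miRNA base 5, by a G:U pair. With miR-196b it paired at 20 bases by Watson–Crick rules and left miRNA base 12 unpaired. Among 14714 tested protein-coding genes with an annotated 3′-UTR, *HOXB8* was the only 1 with 18 or more Watson–Crick pairs to miR-196a in any ungapped window. The next highest number in another gene was 17, and the best window of the other *HOX* members had 11 to 15. Because of the G:U pair, *HOXB8* does not hold the plain seed match.

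A seed match to miR-196 was found in the 3′-UTR of 8 of the 39 members (20.5%), with 14 sites in all. They were *HOXA5*, *HOXA7* with 4 sites, *HOXA9* with 2, *HOXB1*, *HOXB6*, *HOXB7*, *HOXB13* and *HOXC8* with 3. The same match was present in 7.8% of all 14714 3′-UTRs and in 4.1% of the 2522 between 734 and 1341 bases long, the middle range of lengths of the members. A match to the miR-10 seed (ACAGGGT) was found in 3 members, 7.7%, among them *HOXA3* and *HOXB3*, beside 14.7% of all and 7.5% of that length range. A match is a string of letters and says nothing of binding in these cells.

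Depth ranged from 27709971 to 45271146 counts per sample. Levels are given as normalised read counts in CPM, scaled by library size with TMM factors. Genes were called at an adjusted p at or under 0.05 in the quasi-likelihood test of edgeR, adjusted by Benjamini-Hochberg over 22842 genes. The value after ± beside a log2 fold change is its standard error from that fit. *AGO1* RNA was at 138, 108 and 146 CPM in wild-type cells and at 28.7 to 39.5 CPM in the 9 samples of the 3 lines labelled as lacking *AGO1*. *AGO3* RNA was at 100, 130 and 107 CPM in wild-type cells and at 51.8, 57.4 and 46.1 in triple knockout cells.

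*AGO2* RNA was at 379, 459 and 382 CPM in wild-type cells and 262, 314 and 283 in *AGO2* knockout cells. It stayed at 321, 332 and 365 in double knockout cells and was 1.32-fold higher, at 518, 557 and 538, in triple knockout cells, so *AGO2* RNA was not lower in the last line. The study checked all 4 lines by sequencing the edited DNA and by western blot, which ran the way the labels say. *AGO4* RNA was 2.45-fold higher in triple knockout cells, where 2 of the 4 *AGO* genes were thus called higher and 2 lower. Edited genes can still be transcribed, and RNA counts do not measure protein. The lines are therefore named below as labelled. The *AGO2* knockout files also name another quantification mode in their headers, so in that line the genotype cannot be told apart from the mode.

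Wild-type replicate 2 stood apart from the other wild-type samples. Over all genes tested 18.9% lay at least 0.5 on the log2 scale from the mean of the other samples of the line, beside 1.43% to 11.7% in the other 14 samples. Among the *HOX* genes it was the lowest wild-type sample for 21 of the 31 tested members, among them 8 of 11 in *HOXA* and 8 of 9 in *HOXB*, and the highest for 7, among them *HOXB9* and all 3 tested *HOXD* genes. Its median log2 difference from the other wild-type samples was -0.26 in *HOXA*, -0.50 in *HOXB*, -0.18 in *HOXC* and 0.97 in *HOXD*. Calls that rest on it are given below with and without it. Without it, 23 members were still called in triple knockout cells, 21 higher and 2 lower, because *HOXC10* was lost and *HOXB13* gained.

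Markers of colorectal epithelium listed for the check summed to 1330 to 2640 CPM per sample, with 6 of 8 genes at or above 1 CPM. The colonic transcription factor *CDX1* was at or under 3 counts in all 15 samples and *VIL1* was below 1 CPM. In triple knockout cells 1 of 6 tested markers was higher (0 without wild-type replicate 2) and 3 were lower, namely *CDH1*, *EPCAM* and *CDX2*. *CDH1*, the E-cadherin gene of epithelial junctions, was at 84.5, 134 and 74.6 CPM in wild-type and 8.73, 9.21 and 7.76 CPM in triple knockout samples, a fall of 11.4-fold (log2 -3.51 ± 0.26, adjusted p = 7.51e-08). *EPCAM* was at 205, 211 and 222 CPM in wild-type and 61.9, 64 and 64.8 CPM in triple knockout samples. Blood and endothelial marker sums stayed between 1.47 and 11.1 CPM, with *CD3E* at or under 3 counts in all samples, and the fibroblast sum between 11.7 and 31 CPM, with *LUM* at or under 3 counts. The sum of 3 neuronal markers was 34.6 to 73.3 CPM in wild-type and 122 to 133 CPM in triple knockout cells. It followed *TUBB3*, a tubulin gene, while *RBFOX3* and *SYP* stayed at or below 1.83 CPM. The part of these markers in the *HOX* results was not tested.

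In triple knockout cells, *HOX* RNA was higher across the *HOXA* and *HOXB* clusters, partly higher in *HOXC* and lower for *HOXD8*. The count summed over all 39 genes was 341, 296 and 350 CPM in the wild-type samples and 955, 897 and 909 in the triple knockout samples. The *AGO1* and *AGO2* single knockouts lay at 356 to 393 CPM, and double knockout cells at 498, 567 and 545. All 3 triple knockout samples were above all others, and the double knockout samples were above all wild-type and single-knockout samples. The mean rose from 329 ± 29.0 (SD, n = 3) to 920 ± 31 CPM, 2.80-fold, and in double knockout cells it was 536 ± 35.4 CPM, 1.63-fold. With 3 samples against 3 an exact permutation test of such a sum cannot go below p = 0.1, so none is given. In bulk RNA, more cells with a transcript and more transcript per cell cannot be told apart.

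The sum over *HOXA* was 93.6, 82.9 and 105 CPM in wild-type, 120, 122 and 115 in *AGO1*, 141, 145 and 154 in *AGO2*, 146, 139 and 126 in double knockout cells and 356, 317 and 322 in triple knockout samples. All 4 knockout lines lay above the wild-type range. The sum over *HOXB* was 221, 182 and 219 CPM in wild-type, 212, 218 and 241 in *AGO1*, 208, 224 and 208 in *AGO2*, 321, 397 and 393 in double knockout cells and 559, 542 and 551 in triple knockout samples. Here the single knockouts overlapped the wild-type range and the lines without both *AGO1* and *AGO2* did not.

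*HOXC* summed to 21.7, 19.9 and 22 CPM in wild-type and 37.5, 36 and 34.1 in triple knockout samples, with no overlap. *HOXD* summed to 4.42, 10.3 and 4.25 CPM in wild-type, 2.31, 2.41 and 2.76 in double knockout cells and 2.58, 2.14 and 1.97 in triple knockout samples. The mean *HOXD* sum in the triple knockout was 0.352 of wild-type. The highest *HOXD* value was that of wild-type replicate 2, and without it the ratio was 0.514. In wild-type cells *HOXB* held 63.0% of all *HOX* counts, *HOXA* 28.5%, *HOXC* 6.47% and *HOXD* 2%. The *HOXD* share ran from 1.22% to 3.48% over the wild-type samples and was 1.26% without wild-type replicate 2. In triple knockout cells the shares were 59.9%, 36.0%, 3.90% and 0.241%.

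**Figure D1:**
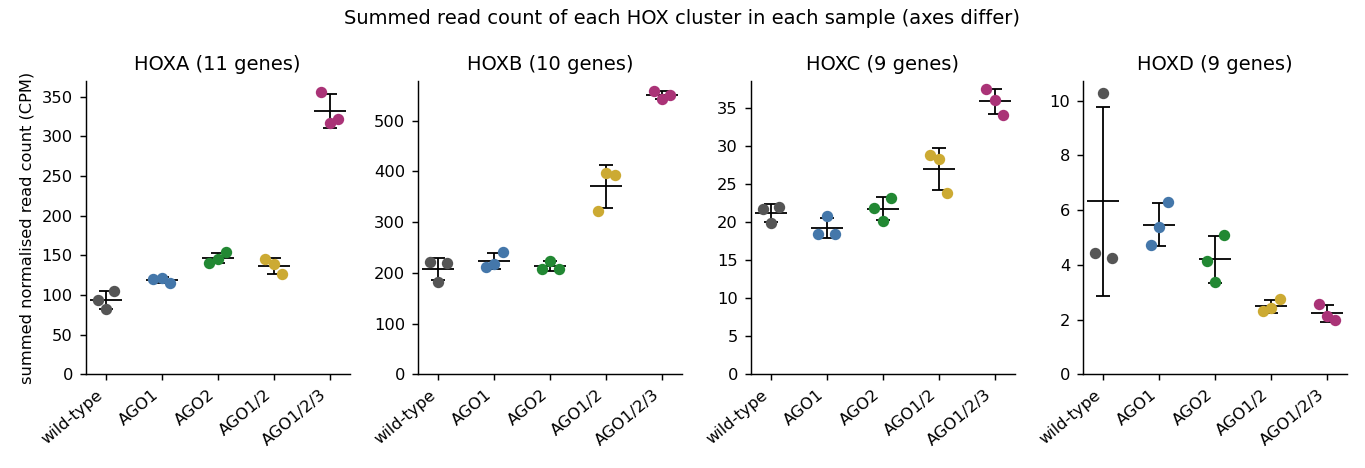
Summed normalised read count (CPM, linear axes that start at 0 and differ between panels) of the genes of each *HOX* cluster, with 1 point per sample, a horizontal mark for the mean and bars for the SD of 3 replicates. The *HOXA* and *HOXB* sums were highest in triple knockout samples (317 to 356 and 542 to 559 CPM), and the *HOXD* sums of triple (1.97 to 2.58 CPM) and double knockout samples (2.31 to 2.76 CPM) overlap below those of the other lines.

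Against wild-type, 22 of the 31 tested members were higher in triple knockout cells, where 20.3% of all genes tested were higher, and 1 was lower, where 19.8% of all genes were lower. The remaining 8 were not called. In *HOXA* 10 of 11 were higher, in *HOXB* 8 of 9 tested, in *HOXC* 4 of 8 tested, and in *HOXD* 1 of 3 tested was lower. Median log2 fold changes were 1.60 in *HOXA*, 1.48 in *HOXB*, 0.61 in *HOXC* and -0.86 in *HOXD*, beside -0.01 over all genes. A rise of at least 2-fold was called for 18 members, beside 6.96% of all genes. Without wild-type replicate 2 the rises of *HOXA7* (log2 0.93) and *HOXA13* (0.86) fell under 2-fold. All triple knockout samples lay above all wild-type samples for 23 members (26.3% of all genes) and below them for 1 (23.8%).

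The filter bears on these counts. Only 26 members were above its cutoff of 0.326 CPM in every sample, and of those 19 were higher and 1 lower. Among the other 5, *HOXC11* and *HOXD4* reached it in all samples of 1 line only, the triple knockout for *HOXC11*. The wild-type samples of *HOXA2* (0.282, 0.255 and 0.211 CPM) were all under it, so *HOXA2* was tested through knockout samples alone.

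*HOXB8*, a gene of the middle of the *HOXB* cluster that acts in blood cell precursors and the nervous system, was at 27.3, 17.9 and 33.8 CPM in wild-type samples, 32, 29.9 and 29.3 CPM in the *AGO1* line, 35.5, 48.3 and 39 CPM in the *AGO2* line, 54.2, 63.1 and 50 CPM in the double knockout and 74.5, 78.4 and 82.1 CPM in the triple knockout. All triple knockout samples were above all double knockout samples, which were above all *AGO2* samples, which were above all wild-type samples, while the *AGO1* samples lay within the wild-type range. Against wild-type the change was 2.97-fold (log2 1.57 ± 0.18, adjusted p = 5.79e-06) in *AGO1/2/3*, 2.12-fold (log2 1.08 ± 0.179, adjusted p = 0.000672) in double knockout cells and 1.55-fold (log2 0.64 ± 0.177, adjusted p = 0.0245) in *AGO2* knockout cells.

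In *AGO1* knockout cells *HOXB8* was not called (log2 0.20 ± 0.178, adjusted p = 0.548). The *AGO2* call depended on single samples. It was lost without wild-type replicate 1 (log2 0.64, adjusted p = 0.0533), wild-type replicate 2 (0.40, 0.0922), *AGO2* replicate 2 (0.48, 0.134) or *AGO2* replicate 3 (0.65, 0.0644), while the *AGO1/2* and *AGO1/2/3* calls held under all alternatives tried, at log2 0.85 and 1.33 without wild-type replicate 2. From *AGO1* to double knockout cells *HOXB8* rose 1.84-fold (log2 0.88 ± 0.178, adjusted p = 0.00239). From *AGO1/2* to triple knockout cells the difference missed the threshold (log2 0.49 ± 0.176, adjusted p = 0.0588) although all 3 samples were higher, and it was called under 5 alternatives. These were DESeq2 (log2 0.49, adjusted p = 0.0475), only the samples of the lines compared (0.47, 0.00702), no filter on low counts (0.47, 0.0372), and the fits without wild-type replicate 2 (0.48, 0.00936) or wild-type replicate 3 (0.48, 0.0334).

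*HOXB7* and *HOXB9* flank *HOXB8* and lack its extended site. *HOXB7* has been studied as a growth-promoting gene in several carcinomas, and was at 28.6, 18.2 and 27.3 CPM in wild-type samples, 32.6, 27.6 and 24.1 CPM in the *AGO1* line, 40.5, 47 and 42.2 CPM in the *AGO2* line, 48.2, 40.6 and 40.2 CPM in the double knockout and 63.5, 67.8 and 76.3 CPM in the triple knockout. It was higher in *AGO2* (1.75-fold, log2 0.81 ± 0.157, adjusted p = 0.0045), *AGO1/2* (1.74-fold, log2 0.80 ± 0.158, adjusted p = 0.0026) and triple knockout cells (2.8-fold, log2 1.48 ± 0.159, adjusted p = 2.98e-06), and none of these lines overlapped wild-type. *HOXB9* was at 45.4, 64.5 and 29.6 CPM in wild-type samples, 30.2, 49.4 and 45.9 CPM in the *AGO1* line, 23.3, 24.1 and 23.2 CPM in the *AGO2* line, 44.3, 55.2 and 80.8 CPM in the double knockout and 109, 111 and 116 CPM in the triple knockout, a wide spread in wild-type and *AGO1/2* cells.

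*HOXB9* fell 1.97-fold (log2 -0.98 ± 0.252, adjusted p = 0.0173) in *AGO2* knockout cells, the opposite of *HOXB7* and *HOXB8* there, and rose 2.41-fold (log2 1.27 ± 0.251, adjusted p = 0.00084) in triple knockout cells. The fall was lost without wild-type replicate 2 (log2 -0.70, adjusted p = 0.0775), *AGO2* replicate 2 (-1.01, 0.0559) or *AGO2* replicate 3 (-0.99, 0.055). The 3 *AGO2* samples still lay below every other sample of *HOXB9* in the other 4 lines.

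**Figure D2:**
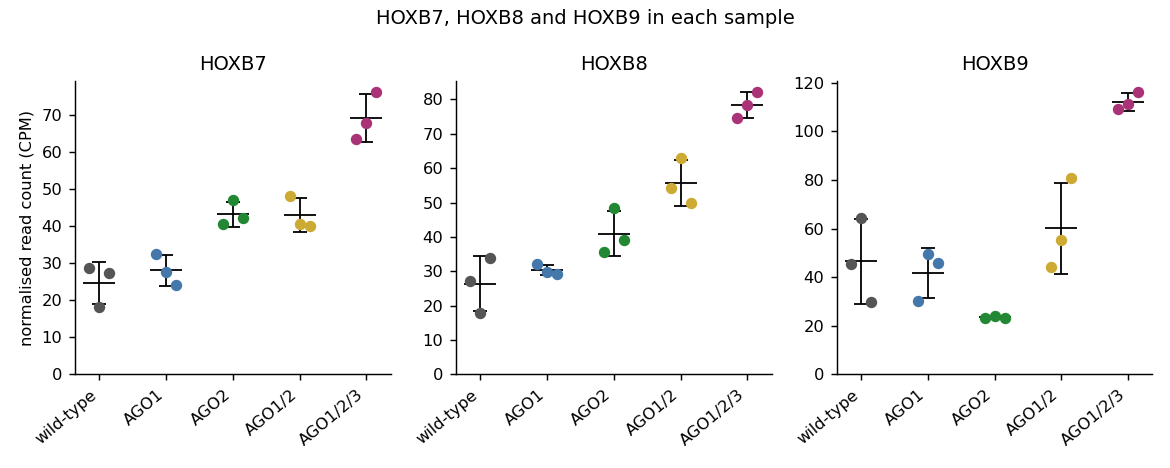
Normalised read count (CPM, linear axes from 0 that differ between panels) of *HOXB7*, *HOXB8* and *HOXB9* in each sample of the 5 lines, with a horizontal mark for the mean and bars for the SD of 3 replicates. The *HOXB8* points rise from 17.9 to 33.8 CPM in wild-type to 74.5 to 82.1 CPM in triple knockout samples, and the *HOXB9* points of the *AGO2* knockout (23.2 to 24.1 CPM) lie below those of the other lines.

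The rest of *HOXB* from *HOXB2* to *HOXB6* was not called in either single knockout, although *HOXB5* was called lower in the *AGO2* line without wild-type replicate 2 (log2 -0.59, adjusted p = 0.0441). *HOXB2*, which patterns the hindbrain, was at 1.03, 0.733 and 0.784 CPM in wild-type samples, 0.685, 0.987 and 0.534 CPM in the *AGO1* line, 0.761, 0.741 and 0.583 CPM in the *AGO2* line, 0.993, 1.31 and 1.22 CPM in the double knockout and 5.44, 4.9 and 5.46 CPM in the triple knockout. Only the triple knockout samples stood apart, 6.17-fold (log2 2.63 ± 0.202, adjusted p = 1.06e-07) against wild-type. *HOXB3* was at 27, 20.4 and 31.1 CPM in wild-type samples, 21.2, 21.7 and 28.9 CPM in the *AGO1* line, 25.9, 21.7 and 21.7 CPM in the *AGO2* line, 37.7, 57.6 and 51.2 CPM in the double knockout and 84.9, 68.1 and 62.3 CPM in the triple knockout. It rose 1.86-fold (log2 0.90 ± 0.186, adjusted p = 0.00367) in double knockout cells and 2.74-fold (log2 1.45 ± 0.188, adjusted p = 1.85e-05) in triple knockout cells, and neither line overlapped wild-type. It shares exon sequence with *HOXB4* and *HOXB6*, and the split of reads among the 3 is uncertain.

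*HOXB4*, known for promoting the self-renewal of blood stem cells, was at 23, 13.9 and 23.9 CPM in wild-type samples, 19.8, 16.7 and 18 CPM in the *AGO1* line, 24.5, 31.9 and 25.7 CPM in the *AGO2* line, 36.5, 48.2 and 42.5 CPM in the double knockout and 51.3, 51.6 and 54.4 CPM in the triple knockout. All *AGO2* samples were slightly above wild-type but not called (log2 0.43 ± 0.171, adjusted p = 0.0871), and it rose 2.09-fold (log2 1.06 ± 0.173, adjusted p = 0.000588) in double knockout cells and 2.58-fold (log2 1.37 ± 0.173, adjusted p = 1.52e-05) in triple knockout cells. *HOXB5* was at 18, 13.9 and 19.5 CPM in wild-type samples, 21.2, 22.7 and 30.7 CPM in the *AGO1* line, 14.1, 11.6 and 12.2 CPM in the *AGO2* line, 27.6, 39.8 and 37 CPM in the double knockout and 59.3, 52.4 and 49.5 CPM in the triple knockout. Its *AGO1/2* (2.03-fold, log2 1.02 ± 0.171, adjusted p = 0.000738) and triple knockout samples (3.14-fold, log2 1.65 ± 0.172, adjusted p = 2.33e-06) were above all wild-type samples.

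*HOXB6* was at 35.6, 21.6 and 37.4 CPM in wild-type samples, 41.8, 36.8 and 48.8 CPM in the *AGO1* line, 29.2, 26.9 and 29.2 CPM in the *AGO2* line, 58.7, 77.9 and 76.5 CPM in the double knockout and 99, 95.5 and 95.1 CPM in the triple knockout. The *AGO2* samples of *HOXB6* lay inside the wild-type range, and the gene rose 2.25-fold (log2 1.17 ± 0.173, adjusted p = 0.00028) in double knockout cells and 3.06-fold (log2 1.61 ± 0.174, adjusted p = 3.24e-06) in triple knockout cells. Summed as a unit, an alternative chosen after seeing the data, *HOXB3*, *HOXB4* and *HOXB6* gave log2 1.06 ± 0.163 in double knockout cells and 1.5 ± 0.165 in triple knockout cells. The single knockouts gave 0.12 ± 0.162 and 0.02 ± 0.162.

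*HOXB13*, a posterior gene expressed in prostate and distal colon that lies apart from the others at the end of the cluster, did not follow them. Its 15 samples ranged from 9.73 to 15 CPM, and its triple knockout samples at 12.2, 12.3 and 9.73 overlapped the wild-type ones at 15, 11.3 and 15. The change was log2 -0.27 ± 0.135, adjusted p = 0.124. Without wild-type replicate 2 it was called lower (log2 -0.43, adjusted p = 0.0131). *HOXB1* had 0 or 1 counts per sample and was not tested.

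In *HOXA* the triple knockout rise was steepest from *HOXA2* to *HOXA4* and again at *HOXA9* and *HOXA10*. *HOXA2*, which patterns the second pharyngeal arch, was at 0.282, 0.255 and 0.211 CPM in wild-type samples, 0.56, 0.767 and 0.567 CPM in the *AGO1* line, 0.582, 0.417 and 0.38 CPM in the *AGO2* line, 0.641, 0.379 and 0.258 CPM in the double knockout and 1.96, 2.1 and 1.49 CPM in the triple knockout. It rose 7.36-fold (log2 2.88 ± 0.3, adjusted p = 2.28e-06) in triple knockout cells, whose samples lay above all others, and the single knockout samples were above wild-type as well. All its wild-type values were under the filter's cutoff of 0.326 CPM, so these folds rest on few wild-type counts.

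The *AGO1* call of *HOXA2* (2.5-fold, log2 1.32 ± 0.341, adjusted p = 0.0248) was lost without any 1 wild-type replicate (log2 1.43, 1.34 and 1.22, adjusted p = 0.0506, 0.0547 and 0.0751) or without *AGO1* replicate 2 (1.18, 0.102). *HOXA3*, needed for thymus and parathyroid formation, was at 3.07, 2.77 and 3.41 CPM in wild-type samples, 4.17, 5.66 and 5 CPM in the *AGO1* line, 5.15, 4.95 and 5.04 CPM in the *AGO2* line, 6.63, 6.17 and 5.05 CPM in the double knockout and 26.6, 25.2 and 19.6 CPM in the triple knockout. It was higher in all 4 lines, from 1.6-fold (log2 0.68 ± 0.159, adjusted p = 0.0154) in *AGO1* and 1.64-fold (log2 0.71 ± 0.156, adjusted p = 0.00839) in *AGO2* to 1.93-fold (log2 0.95 ± 0.158, adjusted p = 0.000713) in double knockout cells and 7.7-fold (log2 2.95 ± 0.158, adjusted p = 3.22e-09) in triple knockout cells. None of the 4 lines overlapped wild-type. In triple knockout cells *HOXA3* and *HOXA2* differed by less than their standard errors, and without wild-type replicate 2 they were at log2 2.85 and 2.87. Without *AGO1* replicate 2 the *AGO1* call was lost (log2 0.58, adjusted p = 0.0739).

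*HOXA4* was at 0.909, 0.287 and 1.06 CPM in wild-type samples, 1.15, 0.987 and 1.27 CPM in the *AGO1* line, 0.761, 0.833 and 1.44 CPM in the *AGO2* line, 0.961, 0.759 and 0.553 CPM in the double knockout and 3.73, 3.4 and 3.08 CPM in the triple knockout. The triple knockout samples stood apart from all others (4.5-fold, log2 2.17 ± 0.33, adjusted p = 8.43e-05), and no other line was called. *HOXA5*, which in mice is needed for lung development, was at 5.26, 3.31 and 5.82 CPM in wild-type samples, 7.38, 6.28 and 5.77 CPM in the *AGO1* line, 7.12, 6.09 and 7.32 CPM in the *AGO2* line, 5.41, 5 and 4.35 CPM in the double knockout and 9.03, 8.86 and 8.91 CPM in the triple knockout. It was called in triple knockout cells alone (1.86-fold, log2 0.90 ± 0.174, adjusted p = 0.000717), although the *AGO2* samples also lay above wild-type (log2 0.51 ± 0.173, adjusted p = 0.0511). *HOXA6* was at 2.13, 1.53 and 2.5 CPM in wild-type samples, 3.58, 2.27 and 2.8 CPM in the *AGO1* line, 2.31, 2.2 and 2.69 CPM in the *AGO2* line, 2.56, 2.55 and 2.1 CPM in the double knockout and 3.6, 3.54 and 3.46 CPM in the triple knockout.

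*HOXA6* rose 1.72-fold (log2 0.78 ± 0.193, adjusted p = 0.00455) in triple knockout cells, with no overlap. *HOXA3*, *HOXA4* and *HOXA6* share exon sequence with read-through genes, up to 31.3% of the exon bases for *HOXA4*. Summed as a unit they gave log2 0.63 ± 0.155 in *AGO1* (adjusted p = 0.0207), 0.55 ± 0.154 in *AGO2* (adjusted p = 0.0238), 0.64 ± 0.155 in double (adjusted p = 0.0104) and 2.39 ± 0.156 in triple knockout cells (adjusted p = 2.07e-08), so how far each of the 3 moved is uncertain. *HOXA7* was at 12.6, 10.3 and 12.2 CPM in wild-type samples, 16.9, 17.7 and 15.4 CPM in the *AGO1* line, 15.5, 17.1 and 18.3 CPM in the *AGO2* line, 18.5, 15.7 and 14.9 CPM in the double knockout and 24, 24.3 and 23.9 CPM in the triple knockout. It was higher in all 4 lines and overlapped wild-type in none: 1.42-fold (log2 0.51 ± 0.113, adjusted p = 0.0109) in *AGO1*, 1.45-fold (log2 0.54 ± 0.112, adjusted p = 0.00655) in *AGO2*, 1.4-fold (log2 0.49 ± 0.113, adjusted p = 0.00743) in double knockout cells and 2.06-fold (log2 1.04 ± 0.112, adjusted p = 3.22e-06) in triple knockout cells. The *AGO1* call was lost without *AGO1* replicate 2 (log2 0.48, adjusted p = 0.0558) and the *AGO1/2* call without *AGO1/2* replicate 1 (0.37, 0.0561). Of the *HOXA7* exon bases 62.5% lie opposite *HOXA-AS3*; the library kit keeps the strand.

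*HOXA9*, a driver of myeloid leukaemia and the *HOXA* gene with the most counts here, was at 44.4, 42.8 and 47 CPM in wild-type samples, 49, 52.4 and 51.9 CPM in the *AGO1* line, 72, 74.7 and 79 CPM in the *AGO2* line, 75.8, 78.5 and 67.8 CPM in the double knockout and 213, 172 and 178 CPM in the triple knockout. It rose 1.68-fold (log2 0.75 ± 0.0978, adjusted p = 0.000304) in *AGO2*, 1.65-fold (log2 0.72 ± 0.0979, adjusted p = 0.000131) in double knockout cells and 4.19-fold (log2 2.07 ± 0.101, adjusted p = 1.38e-09) in triple knockout cells, none overlapping wild-type. The *AGO1* samples were also above wild-type, without a call (log2 0.19 ± 0.0977, adjusted p = 0.27). *HOXA10*, known from uterine development, was at 12.7, 10.7 and 15.6 CPM in wild-type samples, 18.6, 16.7 and 16.4 CPM in the *AGO1* line, 19, 20.1 and 19.3 CPM in the *AGO2* line, 16.2, 14.1 and 13.4 CPM in the double knockout and 49.1, 50.2 and 55.9 CPM in the triple knockout. It rose 1.5-fold (log2 0.58 ± 0.125, adjusted p = 0.00717) in *AGO2* and 3.99-fold (log2 2.0 ± 0.127, adjusted p = 1.55e-08) in triple knockout cells, and its double knockout samples overlapped wild-type. *HOXA9* and *HOXA10* share exons with a read-through gene, and as a unit they gave log2 2.05 ± 0.0962 in triple knockout cells.

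*HOXA11*, which with *HOXA13* patterns the limb and the reproductive tract, was at 4.67, 4.88 and 5.64 CPM in wild-type samples, 7.59, 10.3 and 5.87 CPM in the *AGO1* line, 5.75, 6.94 and 6.1 CPM in the *AGO2* line, 6.24, 4.31 and 4.64 CPM in the double knockout and 6.56, 6.13 and 7.35 CPM in the triple knockout. It was not called in triple knockout cells (log2 0.40 ± 0.19, adjusted p = 0.109), although all 3 samples lay above wild-type. Its *AGO1* call (1.56-fold, log2 0.64 ± 0.189, adjusted p = 0.047) was lost under 18 of 24 alternatives, with log2 values of 0.60, 0.62 and 0.73 when wild-type replicates 1, 2 and 3 were left out in turn (adjusted p = 0.137, 0.103 and 0.0591) and of 0.43 without *AGO1* replicate 2 (0.239). *HOXA13* was at 5.58, 3.95 and 9.14 CPM in wild-type samples, 7.87, 5.59 and 6.04 CPM in the *AGO1* line, 10.7, 9.77 and 12 CPM in the *AGO2* line, 9.13, 7.86 and 8.92 CPM in the double knockout and 12.9, 14.8 and 13.2 CPM in the triple knockout. It rose 2.18-fold (log2 1.13 ± 0.222, adjusted p = 0.000799) in triple knockout cells, whose samples lay above all others.

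The *AGO2* call of *HOXA13* (1.73-fold, log2 0.79 ± 0.221, adjusted p = 0.0239) was lost without wild-type replicate 1 (log2 0.70, adjusted p = 0.0751), wild-type replicate 2 (0.53, 0.0939), *AGO2* replicate 2 (0.85, 0.0541) or *AGO2* replicate 3 (0.70, 0.0925). Across the *HOXA* genes the triple knockout change had a median log2 of 2.53 at positions 1 to 4, 0.90 at positions 5 to 8 and 1.56 at positions 9 to 13. In *HOXB* the tested genes at positions 5 to 8 lay close together, from 1.48 to 1.65.

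**Figure D3:**
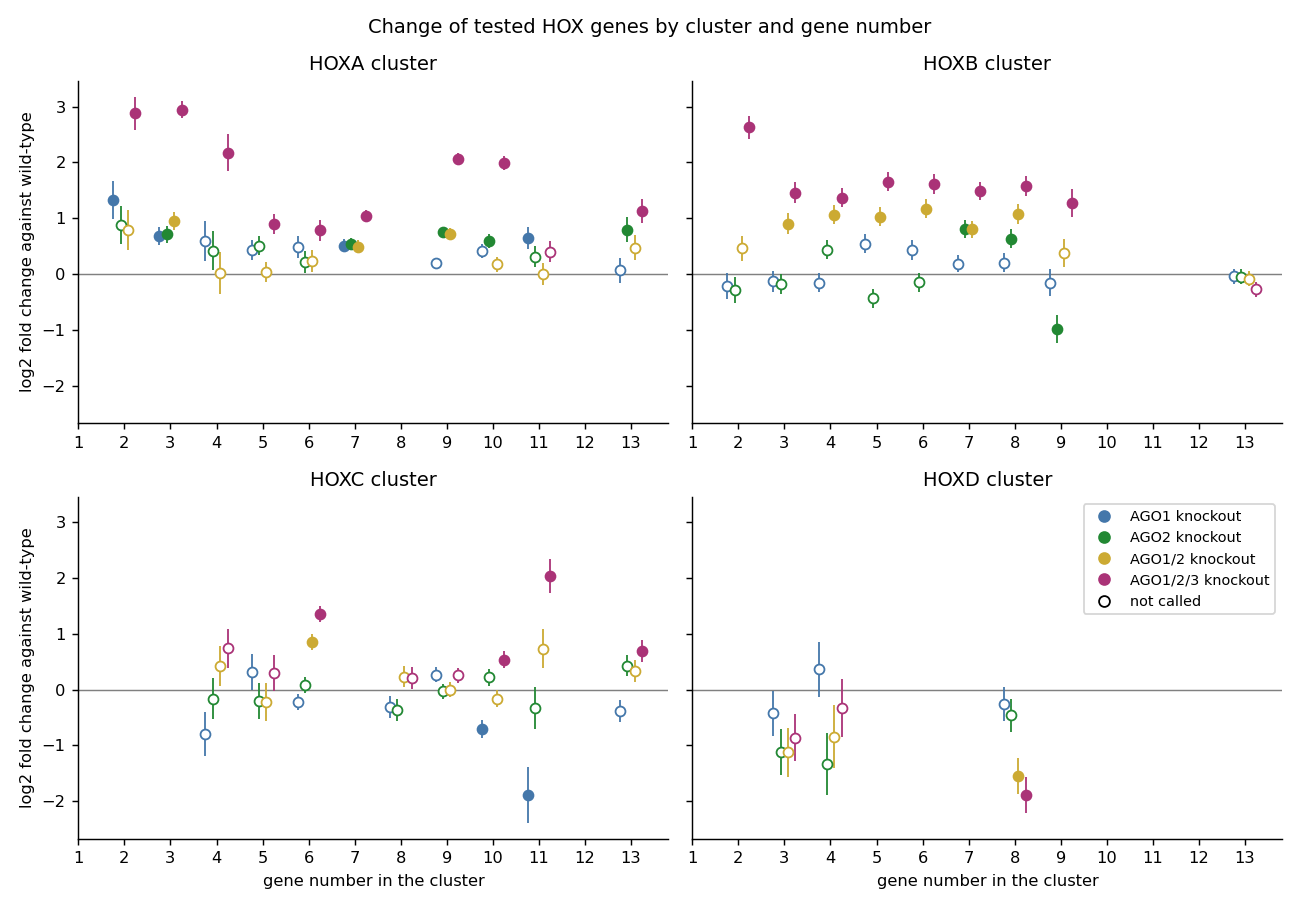
Log2 fold change against wild-type (y axis) of the tested *HOX* genes described here by their number in the cluster (x axis), in 4 panels by cluster and 4 colours by knockout line; bars are standard errors, filled points are called and open points are not. The triple knockout points of *HOXA* range from 0.40 to 2.95 and dip at numbers 5 to 7 and 11, those of *HOXB* lie at 1.27 to 2.63 apart from *HOXB13* at -0.27, and those of *HOXD* lie below 0, although that of *HOXD4* is 0.60 without wild-type replicate 2.

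*HOXC* RNA was low and its genes moved unequally. *HOXC6* was at 5.83, 5.16 and 5.79 CPM in wild-type samples, 4.01, 5.08 and 5.34 CPM in the *AGO1* line, 6.13, 5.16 and 6.38 CPM in the *AGO2* line, 11.9, 9.76 and 8.55 CPM in the double knockout and 14.3, 14.6 and 14.2 CPM in the triple knockout. It was the *HOXC* gene with the most counts over the 15 samples, and it rose 1.8-fold (log2 0.85 ± 0.142, adjusted p = 0.000749) in double knockout cells and 2.56-fold (log2 1.36 ± 0.142, adjusted p = 2.33e-06) in triple knockout cells, with no overlap in either. *HOXC10*, expressed in the hindlimb and lumbar spinal cord, was at 3.16, 2.26 and 2.38 CPM in wild-type samples, 1.52, 1.53 and 1.73 CPM in the *AGO1* line, 2.98, 3.03 and 3.09 CPM in the *AGO2* line, 2.53, 2.41 and 2.03 CPM in the double knockout and 3.62, 4.06 and 3.66 CPM in the triple knockout.

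*HOXC10* fell 1.63-fold (log2 -0.70 ± 0.16, adjusted p = 0.0131) in *AGO1*, where its samples lay below all wild-type samples, and rose 1.45-fold (log2 0.54 ± 0.149, adjusted p = 0.00934) in triple knockout cells, where they lay above them. The fall was lost without wild-type replicate 1 (log2 -0.53, adjusted p = 0.0627), *AGO1* replicate 1 (-0.67, 0.0554) or *AGO1* replicate 2 (-0.66, 0.0618), and the rise without wild-type replicate 2 (0.42, 0.0526) or with total-count scaling (0.39, 0.0612). *HOXC13*, needed for hair and nails, was at 2.26, 1.72 and 2.38 CPM in wild-type samples, 1.99, 1.64 and 1.23 CPM in the *AGO1* line, 2.42, 2.8 and 3.37 CPM in the *AGO2* line, 2.34, 2.97 and 2.73 CPM in the double knockout and 3.34, 3.82 and 3.12 CPM in the triple knockout. It rose 1.61-fold (log2 0.69 ± 0.193, adjusted p = 0.00967) in triple knockout cells, with no overlap, and the *AGO2* samples also lay above wild-type without a call (log2 0.43 ± 0.192, adjusted p = 0.123).

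*HOXC11* had 6, 9 and 6 counts in wild-type, 1, 3 and 1 in *AGO1* and 30, 27 and 30 in triple knockout samples. The ratio to wild-type of the summed, depth-scaled counts was 0.257 in *AGO1* (95% exact interval 0.0756 to 0.699) and 4.11 in triple knockout cells (2.53 to 6.97). The intervals cover counting error only. The edgeR test called it lower in *AGO1* (adjusted p = 0.0318) and higher in triple knockout cells (8.91e-05). The *AGO1* call was lost without wild-type replicate 1 or 2 (adjusted p = 0.0533 and 0.126) or *AGO1* replicate 1 or 3 (0.16 and 0.112), and under DESeq2 (0.103).

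*HOXC4* was at 1.28, 1.85 and 1.3 CPM in wild-type samples, 0.685, 0.84 and 1.03 CPM in the *AGO1* line, 1.7, 0.764 and 1.49 CPM in the *AGO2* line, 1.6, 2.83 and 1.51 CPM in the double knockout and 3.6, 2.28 and 1.42 CPM in the triple knockout. *HOXC8* was at 1.79, 2.52 and 2.14 CPM in wild-type samples, 1.68, 1.61 and 1.9 CPM in the *AGO1* line, 1.77, 1.44 and 1.8 CPM in the *AGO2* line, 1.95, 3.28 and 2.36 CPM in the double knockout and 2.65, 2.35 and 2.41 CPM in the triple knockout. The triple knockout samples overlapped the wild-type ones for both. Neither was called in a knockout line against wild-type, and their triple knockout changes were log2 0.74 ± 0.35 and 0.20 ± 0.193. *HOXC5*, at 0.478 to 1.19 CPM, and *HOXC9*, at 5.64 to 8.88 CPM, were not called in any comparison. *HOXC4*, *HOXC5*, *HOXC6*, *HOXC9* and *HOXC10* share exons with each other or with read-through genes, up to 67.3% of the exon bases for *HOXC5*. Summed as a unit they gave log2 0.36 ± 0.113 in double knockout cells (adjusted p = 0.0372) and 0.80 ± 0.112 in triple knockout cells (adjusted p = 4.35e-05), so which of the 5 moved is uncertain.

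*HOXD8* was the main expressed gene of *HOXD*, with 75.7% of the cluster's counts in wild-type cells, and the only member lower in double knockout cells and triple knockout cells. It was at 3.41, 7.75 and 3.17 CPM in wild-type samples, 3.05, 3.87 and 5.07 CPM in the *AGO1* line, 3.4, 2.71 and 4.31 CPM in the *AGO2* line, 1.35, 1.59 and 1.99 CPM in the double knockout and 1.4, 1.23 and 1.22 CPM in the triple knockout. The *AGO1/2* and triple knockout samples, none above 1.99 CPM, lay below all 9 samples of the other lines, none under 2.71 CPM. The fall was 2.91-fold (log2 -1.54 ± 0.322, adjusted p = 0.00381) in double knockout cells and 3.69-fold (log2 -1.88 ± 0.327, adjusted p = 0.000277) in triple knockout cells. Wild-type replicate 2 was over 2-fold above the other wild-type samples, and without it both calls held at log2 -1.02 and -1.38.

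*HOXD3* and *HOXD4* were at 0.157 to 1.47 CPM and were not called in any comparison. Wild-type replicate 2 was the highest wild-type sample for both, with 46 counts beside 20 and 13 for *HOXD3* and 30 beside 6 and 10 for *HOXD4*. Without it the triple knockout changes were log2 -0.20 for *HOXD3* and 0.60 for *HOXD4*, and neither was called. The 8 untested members were *HOXB1*, *HOXC12*, *HOXD1*, *HOXD9*, *HOXD10*, *HOXD11*, *HOXD12* and *HOXD13*. They had at most 5 counts in any sample, and 60 of their 120 values were 0, which at these depths allows a level of up to 0.0672 to 0.111 CPM per sample. Changes in them were not detectable at this depth.

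Per kilobase of merged exon, the scale on which genes can be compared, the wild-type levels were highest for *HOXB9* (18.0 ± 6.75 CPM per kilobase, SD, n = 3), *HOXB7* (16.3 ± 3.72), *HOXA9* (14.8 ± 0.698), *HOXB6* (12.1 ± 3.32), *HOXB8* (11.0 ± 3.33), *HOXB4* (10.1 ± 2.75) and *HOXB5* (9.21 ± 1.57). Neighbours among these 7 did not differ beyond their spread. *HOXA7* followed at 4.85 ± 0.506. With the longest transcript as the length, *HOXA9* came first at 21.7, before *HOXB7* at 18.1 and *HOXB9* at 18.0. In triple knockout cells *HOXA9* was highest at 61.8 ± 7.28 CPM per kilobase, above *HOXB7* at 45.5 ± 4.29 and *HOXB9* at 43.3 ± 1.38.

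**Figure D4:**
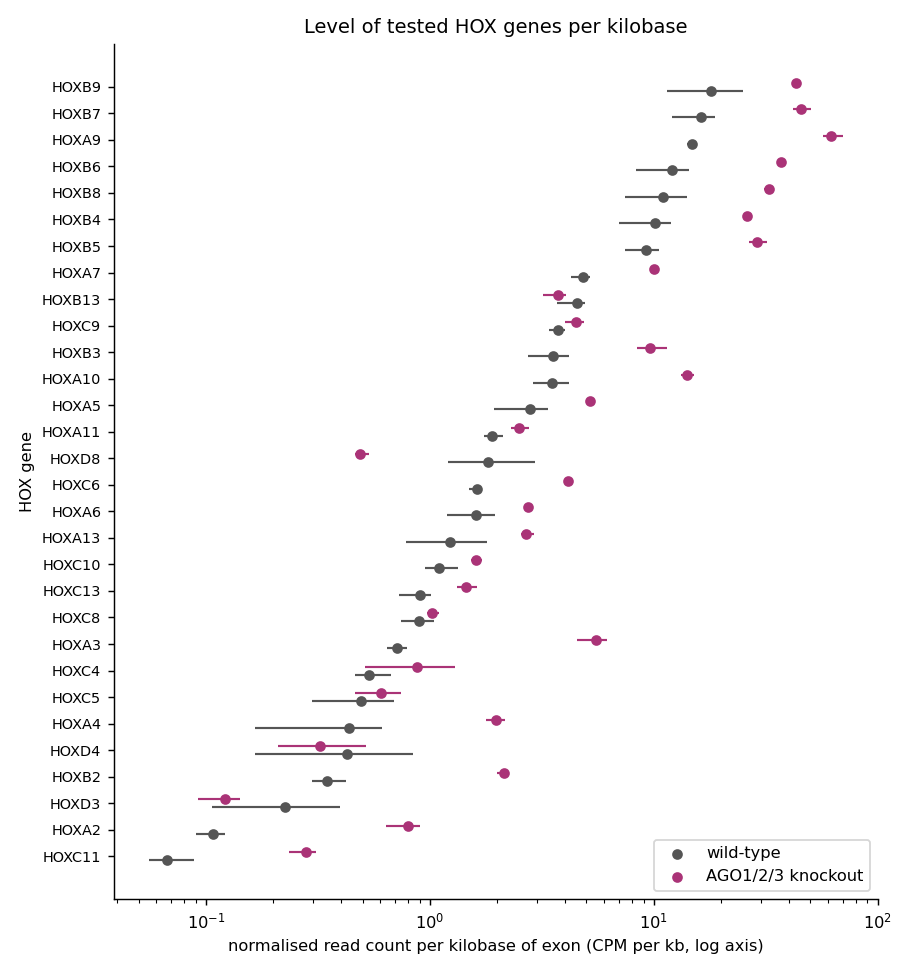
Level of the tested *HOX* genes described here in CPM per kilobase of merged exon (log axis) in wild-type and triple knockout cells; points are means and lines span the lowest to the highest of 3 samples. *HOXB9*, *HOXB7* and *HOXA9* lead in wild-type cells at 14.8 to 18.0 CPM per kilobase, and *HOXD8*, *HOXD3*, *HOXD4* and *HOXB13* are the genes whose knockout mean lies below the wild-type mean.

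The other comparisons place these changes along the series of lines. In *AGO1* knockout cells 5 members were higher (3.17% of all genes) and 2 lower (5.50%). All 5 that rose were in *HOXA*, among them *HOXA3* and *HOXA7*, and both that fell were in *HOXC*. In *AGO2* knockout cells 7 members were higher (8.55% of all genes) and 1 lower (10.8%). They were *HOXA3*, *HOXA7*, *HOXA9*, *HOXA10*, *HOXA13*, *HOXB7* and *HOXB8*, with *HOXB9* the one that fell. Median log2 fold changes over the tested members were 0.19 and 0.12, beside -0.01 and -0.02 over all genes.

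In double knockout cells 11 members were higher (8.37% of all genes) and 1 lower (8.35%). They included *HOXA3*, *HOXA9*, *HOXB3* to *HOXB8* and *HOXC6*. Their log2 fold changes ran from 0.49 to 1.17. Between the lines, 17 members were higher in *AGO1/2/3* than in double knockout cells (11.9% of all genes) and 0 were lower (10.0%). At an unadjusted p under 0.05 edgeR also found 0 lower, as did DESeq2 after adjustment. The largest steps were *HOXB2* (4.49-fold, log2 2.17 ± 0.197, adjusted p = 2.09e-06), *HOXA4* (4.45-fold, log2 2.15 ± 0.333, adjusted p = 0.000274), *HOXA2* (4.27-fold, log2 2.09 ± 0.279, adjusted p = 7.15e-05) and *HOXA3* (3.99-fold, log2 2.0 ± 0.15, adjusted p = 3.82e-07). Single left-out samples ended the calls of *HOXA13* (12 of the 15 samples, log2 0.58 to 0.69, adjusted p = 0.0541 to 0.149), *HOXB3* (9 of 15, 0.39 to 0.62), *HOXC6* (4 of 15, 0.38 to 0.50), *HOXB9* (3 of 15, 0.72 to 0.84) and *HOXB5* (2 of 15, 0.48 to 0.55). The number called in that step was 13 to 20 over these fits.

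From *AGO1* to double knockout cells 11 members were higher (11.5% of all genes) and 2 lower (7.95%). *HOXB* and *HOXC* held 5 of the rises each, led after *HOXC11* by *HOXB4* (2.33-fold, log2 1.22 ± 0.174, adjusted p = 0.000133), *HOXC4* (2.32-fold, log2 1.22 ± 0.386, adjusted p = 0.0373), *HOXC6* (2.1-fold, log2 1.07 ± 0.144, adjusted p = 8.31e-05) and *HOXB3* (2.04-fold, log2 1.03 ± 0.187, adjusted p = 0.00103). The call of *HOXC4* was lost without *AGO1* replicate 1, 2 or 3 (log2 1.07, 1.19 and 1.35, adjusted p = 0.12, 0.103 and 0.052), *AGO1/2* replicate 2 (0.85, 0.195) or *AGO1/2/3* replicate 2 (1.2, 0.0503). In *HOXA* only *HOXA9* rose (1.45-fold, log2 0.54 ± 0.0977, adjusted p = 0.00106) and *HOXA11* fell (1.56-fold, log2 -0.64 ± 0.19, adjusted p = 0.0267), and in *HOXD* *HOXD8* fell (2.44-fold, log2 -1.29 ± 0.325, adjusted p = 0.0106). The call of *HOXA11* was lost without *AGO1* replicate 2 (log2 -0.43, adjusted p = 0.156), *AGO1/2* replicate 2 (-0.55, 0.116) or *AGO1/2* replicate 3 (-0.60, 0.0888). Single left-out samples also ended the call of *HOXB7* (3 samples, log2 0.49 to 0.58, adjusted p = 0.0565 to 0.0724 by edgeR). The same held for *HOXC10* (4 samples, 0.45 to 0.51, 0.0853 to 0.117) and *HOXC13* (4 samples, 0.53 to 0.70, 0.0621 to 0.102).

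The effect of losing *AGO2* was also compared between cells with and without *AGO1*, as an interaction in the same fit. It was higher without *AGO1* for 9 members (11.5% of all genes) and lower for 5 (8.26%). All 5 lower ones were in *HOXA* (*HOXA2*, *HOXA5*, *HOXA7*, *HOXA10* and *HOXA11*), and 6 of the 9 higher ones were in *HOXB* (*HOXB2* to *HOXB6* and *HOXB9*), the other 3 being *HOXC6*, *HOXC8* and *HOXC11*. *HOXB8* was not called. The calls of *HOXA2* and *HOXB2* were each lost without 12 of the 15 samples in turn (log2 -1.53 to -1.19 and 0.74 to 1.05), and those of *HOXA5*, *HOXA7*, *HOXA11*, *HOXB4*, *HOXB6* and *HOXC8* without 2 to 8. The contrast rests on 4 single lines, so an effect of losing *AGO2* cannot be told apart from the line. In the *AGO2* knockout it also cannot be told apart from the quantification mode.

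Of the 31 tested members, 23 were higher in at least 1 knockout line against wild-type, beside 28.6% of all genes, and 4 were lower in at least 1, beside 28.4%. The other 7 were called in none, while 52.6% of all genes were called in at least 1. *HOXA3* and *HOXA7* were higher in all 4 lines. The comparisons share the wild-type samples. With a change of at least 2-fold added to the adjusted p, 2 members were called in *AGO1* (3.40% of all genes), 0 in *AGO2* (5.83%, where the 8 called members changed by less), 5 in double knockout cells (5.78%) and 19 in triple knockout cells (15.9%). Between lines, 7 were called from *AGO1/2* to *AGO1/2/3* (6.59%), 6 from *AGO1* to *AGO1/2* (6.32%) and 4 in the interaction (9.86%). Without wild-type replicate 2 the double knockout rises of *HOXB4*, *HOXB5*, *HOXB6* and *HOXB8* fell under 2-fold (log2 0.84, 0.88, 0.94 and 0.85). *HOXD8* kept a fall of over 2-fold there (log2 -1.02). In triple knockout cells *HOXA7* (0.93) and *HOXA13* (0.86) fell under 2-fold. The *AGO1* calls of *HOXA2* and *HOXC11* were lost without that replicate (adjusted p = 0.0547 and 0.126 by edgeR).

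Members with and without a miR-196 site were set side by side. Of the 8 tested members with a seed match or the *HOXB8* site, 6 were higher in triple knockout cells, with a median log2 fold change of 1.26. Of the 23 without, 16 were higher and 1 lower, with a median of 1.27. Over all genes 20.3% were higher and 19.8% lower there. In *AGO2* knockout cells 4 of the 8 were higher (*HOXA7*, *HOXA9*, *HOXB7* and *HOXB8*), with a median of 0.52, and 3 of the 23, with a median of 0.07, beside 8.55% of all genes. Without wild-type replicate 2 the *HOXB8* call was lost (adjusted p = 0.0922 by edgeR), while those of *HOXA7*, *HOXA9* and *HOXB7* held. In that line the genotype cannot be told apart from the quantification mode. *HOXA3* and *HOXB3*, with a miR-10 seed match, were higher in double and triple knockout cells. *HOXB13* and *HOXC8*, with seed matches, were not called in triple knockout cells, and *HOXB2* and *HOXA4*, without one, were among the largest rises. These groups are small and no test between them was made.

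RNA from other genes in the clusters was read in the same samples. Of 18 noncoding genes named for the clusters, 13 were tested. In triple knockout cells 4 were higher (20.3% of all genes) and 2 lower (19.8%), or 3 and 2 without wild-type replicate 2. *HOXA-AS2* was at 1.22, 0.956 and 1.18 CPM in wild-type and 3.44, 2.87 and 4.17 in triple knockout samples, and *HOXD-AS2*, which overlaps *HOXD8*, was at 0.595, 0.861 and 0.573 and 0.332, 0.175 and 0.237. Neither gene's groups overlapped. *HOXC-AS1* fell 4.49-fold (log2 -2.17 ± 0.398, adjusted p = 0.000461) while *HOXB-AS3* rose 3.45-fold (log2 1.78 ± 0.565, adjusted p = 0.0195). The *HOXB-AS3* call was lost without wild-type replicate 1 (log2 1.51, adjusted p = 0.0784 by edgeR), wild-type replicate 2 (1.52, 0.071) or *AGO1/2/3* replicate 1 (1.53, 0.0868) or 3 (1.73, 0.0506). Without wild-type replicate 3 it was at log2 2.44, 5.41-fold. Of 6 miRNA genes only the *MIR196A1* locus had enough reads to be tested, at 0.407, 0.382 and 0.362 CPM in wild-type and 0.919, 0.736 and 0.847 in triple knockout samples (2.17-fold, log2 1.12 ± 0.328, adjusted p = 0.0128), a call lost without *AGO1/2/3* replicate 1 (log2 1.02, adjusted p = 0.0527). Total RNA libraries of this kind do not measure mature miRNA.

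Genes outside the clusters were read for comparison. Of the 24 nearest expressed protein-coding neighbours, 3 on each side of each cluster at distances of 33.5 to 1027.8 kb, 8 were higher (20.3% of all genes) and 3 lower (19.8%) in triple knockout cells, or 8 and 5 without wild-type replicate 2, with a median log2 fold change of 0.10. The highest were *JAZF1* (2.2-fold, log2 1.14 ± 0.183, adjusted p = 0.000143), *CBX5* (2.12-fold, log2 1.08 ± 0.14, adjusted p = 1.86e-05) and *SKAP2* (2.1-fold, log2 1.07 ± 0.197, adjusted p = 0.000474), each below the medians of *HOXA* and *HOXB*. Next to *HOXB13*, *TTLL6* was not called (log2 -0.20 ± 0.289, adjusted p = 0.632).

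**Figure D5:**
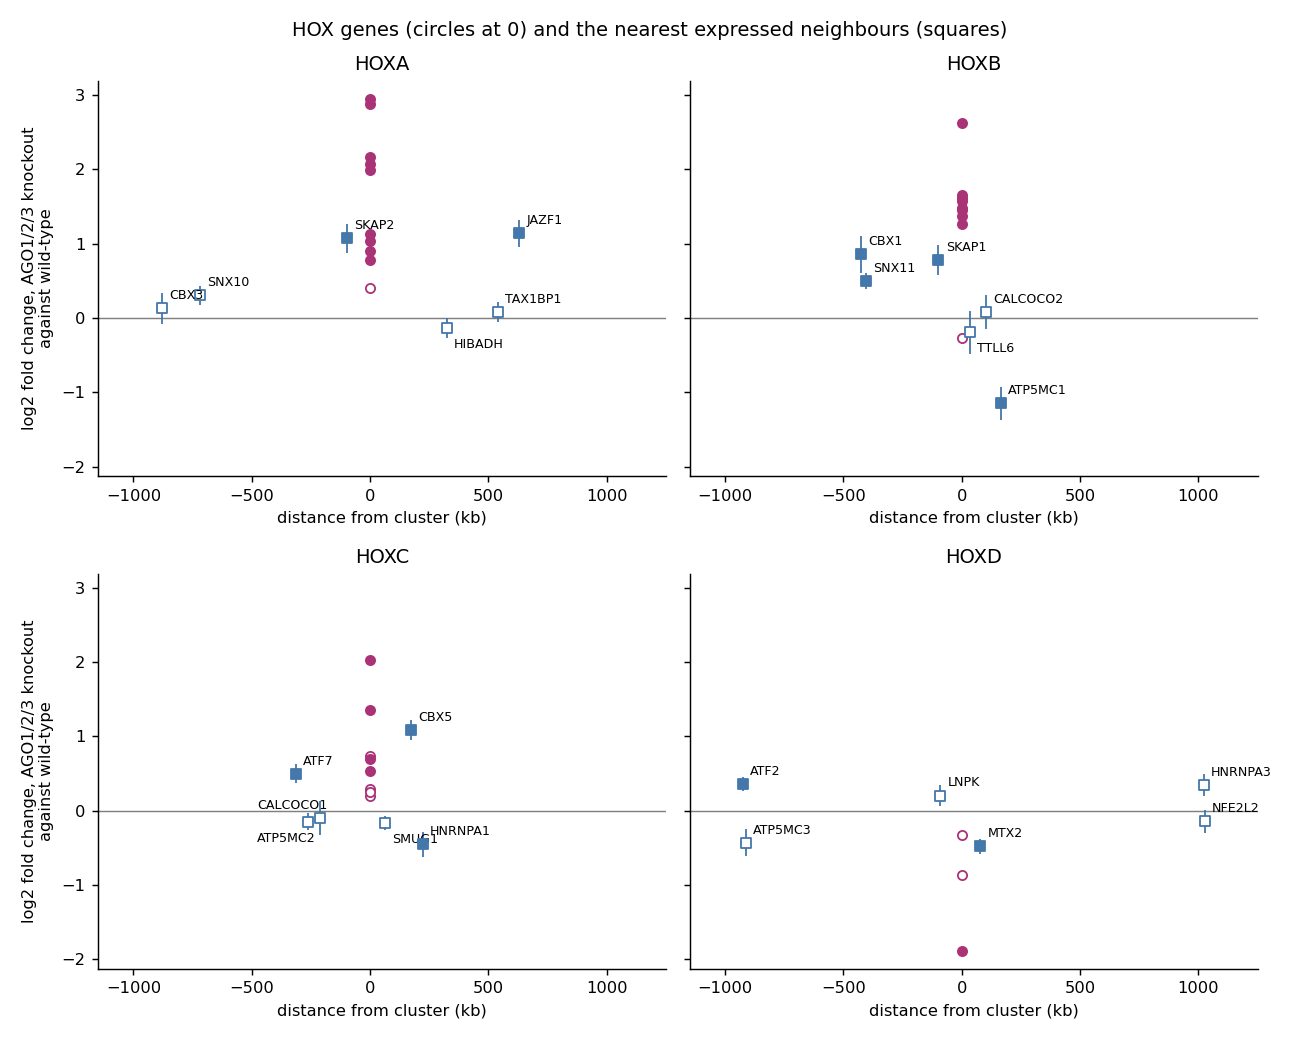
Log2 fold change in *AGO1/2/3* knockout against wild-type cells (y axis) of the tested *HOX* genes described here (circles, drawn at 0) and of the 3 nearest expressed protein-coding genes on each side (squares, with standard errors) by their distance from the cluster in kb (x axis, negative toward lower coordinates); filled symbols are called. The neighbours lie between -1.15 and 1.14, and the *HOXA* genes between 0.40 and 2.95.

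Genes that work with *HOX* proteins were read from lists made for the report. Over all genes tested, 20.3% were higher and 19.8% lower in triple knockout cells. TALE homeodomain cofactors, which bind DNA together with *HOX* proteins, were 3 higher and 3 lower of 8 tested of 9 in triple knockout cells (3 and 4 without wild-type replicate 2). *PBX3* was at 8.83, 6.44 and 9.5 CPM in wild-type samples, 7.75, 5.96 and 6.3 CPM in the *AGO1* line, 14, 13.1 and 13.8 CPM in the *AGO2* line, 18.4, 14.7 and 16.4 CPM in the double knockout and 39.1, 44.4 and 43.5 CPM in the triple knockout, and the rise in the triple knockout was 5.12-fold (log2 2.36 ± 0.145, adjusted p = 1.15e-08). *PKNOX2* fell 3.23-fold (log2 -1.69 ± 0.174, adjusted p = 1.96e-06). Of 22 Polycomb genes, which keep silent *HOX* genes off, 11 were higher and 2 lower (10 and 3 without wild-type replicate 2). The largest rise was *PHF19* (2.42-fold, log2 1.27 ± 0.262, adjusted p = 0.00115), and *EZH2* was at 1.57-fold (log2 0.65 ± 0.177, adjusted p = 0.00792). Without wild-type replicate 2 they were at 2.03-fold (log2 1.025, adjusted p = 0.00609 by edgeR) and 1.39-fold (0.473, 0.0479). Of 11 Trithorax genes, H3K27 demethylases and *CTCF*, 3 were higher and 3 lower (2 and 3 without wild-type replicate 2), with *KDM6B* falling 2.38-fold (log2 -1.25 ± 0.302, adjusted p = 0.00373). *KDM6B* was at 52.7, 114 and 43.2 CPM in wild-type samples, and without wild-type replicate 2 the fall was 1.67-fold (log2 -0.74 ± 0.213, adjusted p = 0.0134). Of 8 ParaHox and *EVX* genes 2 were tested, and *CDX2*, an activator of *HOX* genes in the gut, fell 1.5-fold (log2 -0.58 ± 0.148, adjusted p = 0.00507). Their part in the *HOX* changes was not tested.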

How the data were processed

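RNA from 15 HCT116 samples (5 lines, 3 replicates each) was sequenced by the authors from rRNA-depleted, stranded libraries, with paired ends, and aligned to hg38. The submitters' processing notes name STAR 2.5.3a and Salmon 0.11.0. For each sample the authors deposited a table of Salmon estimated counts per Ensembl gene, not normalised, 30.8% to 33.8% of which were not whole. Headers of the *AGO2* knockout tables name Salmon's quasi-mapping mode, which the others do not. The extraction kit is given differently in the labels and the methods. The 8 eCLIP samples were not analysed here.

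These counts were rounded before fitting. Genes were kept by edgeR's filterByExpr, which left 22842 of 57875 genes, and fitted with TMM scaling and the quasi-likelihood test in edgeR 4.0.16 (R 4.3.3) over all 15 samples with 1 term per line (biological coefficient of variation 0.152). P-values were adjusted by Benjamini-Hochberg over all genes tested, and a call needs an adjusted p at or under 0.05. No sample pair of 105 was identical. Depth was 27709971 to 45271146 counts. The scripts were tested on simulated data. Members were taken by symbol, with coordinates, exon lengths and 3′-UTRs from GENCODE v44 (57167 genes matched) and miRNA sequences from RefSeq. Alternatives were DESeq2 1.42.0, other scalings and filters, a replicate block, only the lines compared, and each sample left out in turn. Values in every sample are given for *HOXB8* and for members called in at least 1 comparison with a line mean of at least 1 CPM, the others by range. Of the members, 1 is counted in the totals but is not reported here by itself. The members and lists were chosen with earlier results of these data known.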

Additional observations from a re-analysis of the deposited data

Results flagged for a closer look

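For 14 *HOX* genes the change that goes with the label of *AGO2* loss differed between lines with and without *AGO1*, by the interaction term of the edgeR fit with Benjamini-Hochberg adjustment over all genes tested. It was higher without *AGO1* for 9 (11.5% of all genes) and lower for 5 (8.26%). The genotype cannot be told apart from the line, nor in the *AGO2* knockout from the quantification mode. The value is the log2 fold change from the *AGO1* to the double knockout minus that from wild-type to the *AGO2* knockout, so that a positive value means more RNA gained, or less lost, on loss of *AGO2* in cells without *AGO1* than in cells with it. In *HOXB* it was positive for *HOXB2* (0.964), *HOXB3* (1.21), *HOXB4* (0.788), *HOXB5* (0.92), *HOXB6* (0.893) and *HOXB9* (1.505). In *HOXC* it was positive for *HOXC6* (0.994), *HOXC8* (0.91) and *HOXC11* (2.954, a gene with 1 to 30 counts per sample). In *HOXA* it was negative for *HOXA2* (-1.418), *HOXA5* (-0.906), *HOXA7* (-0.559), *HOXA10* (-0.827) and *HOXA11* (-0.948).

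Single samples decided several of these calls. *HOXA2* was lost without 12 of the 15 samples in turn (log2 -1.53 to -1.19, adjusted p = 0.0511 to 0.102 by edgeR) and *HOXB2* without 12 (0.74 to 1.05, 0.0543 to 0.123), with wild-type replicates 1 and 3 among them for both. *HOXB4* was lost without 8 (0.66 to 0.75), among them wild-type replicates 1 and 3, and *HOXC8* without 6 (0.68 to 0.92), among them wild-type replicate 2. *HOXA7* was lost without wild-type replicate 2, *AGO1* replicate 2, *AGO2* replicate 2 or 3, or *AGO1/2* replicate 2 (-0.55 to -0.47), and *HOXA11* without wild-type replicate 1, *AGO1* replicate 2, *AGO2* replicate 2 or *AGO1/2* replicate 2 (-0.89 to -0.76). *HOXA5* was lost without *AGO1* replicate 1 or *AGO2* replicate 3 (-0.85 to -0.80), and *HOXB6* without *AGO1* replicate 2 or *AGO1/2* replicate 3 (0.76 to 0.80). The calls of *HOXA10*, *HOXB3*, *HOXB5*, *HOXB9*, *HOXC6* and *HOXC11* held without any single sample.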

How the results depend on the processing

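The count of *HOX* genes called in triple knockout cells against wild-type was 23, and 19 to 26 under all alternatives. It was 23 or 24 when single samples were left out. Of the 23 calls, 19 held under every setting in which the gene was tested. *HOXA2*, *HOXA4* and *HOXC11* are among the 19. With lowest counts of 7, 9 and 1, they were not tested in the fit that required a higher minimum count in every sample. Counted in the same way, 0 of 7 calls held in the *AGO1*, 0 of 8 in the *AGO2* and 5 of 12 in the double knockout. From the double to the triple knockout 7 of 17 held, from the *AGO1* to the double knockout 5 of 13, and in the interaction 3 of 14. These settings include the 2-fold requirement. The other counts of calls also moved more. With a change of at least 2-fold required they were 2 in the *AGO1*, 0 in the *AGO2* and 5 in the double knockout, 7 from the double to the triple knockout, 6 from the *AGO1* to the double knockout and 4 in the interaction. Members that fell under 2-fold or lost their call without wild-type replicate 2 are named above. With only the samples of the lines compared in the edgeR fit the counts were 0 in *AGO1* (9 members had an unadjusted p under 0.05, and DESeq2 over all samples called 8), 5 in *AGO2* and 9 in the interaction. These fits hold fewer samples. The share of all genes called in each alternative fit is not given here. Whether a change in these counts was particular to the *HOX* genes was not tested. Genes that share exons, summed into units (chosen after seeing the data), gave 19 in double knockout cells, a count in which each member of a called unit is counted. Left-out samples gave 2 to 8 in *AGO1*, 5 to 10 in *AGO2*, 11 to 14 in the double knockout, 13 to 20 from the double to the triple, 9 to 16 from the *AGO1* to the double knockout and 8 to 14 in the interaction. The lowest *AGO1* and *AGO2* counts came without *AGO1* replicate 2 and without *AGO2* replicate 2 or 3.

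Replicate numbers did not pair the samples: deviations from the line means correlated at -0.00669 on average for the same number and 0.00333 for different numbers. With the replicate block the counts were 6, 9, 12 and 23 against wild-type, in the order *AGO1*, *AGO2*, double and triple knockout, and 16, 12 and 12 in the other comparisons. For *HOXB8* in *AGO1* knockout cells, not called in any fit, the log2 fold change of 0.20 became -0.006 without wild-type replicate 2 and 0.427 without wild-type replicate 3. The cause was not tested. Leaving out samples for noncoding genes, cofactors, markers and cluster shares was also chosen after seeing the data. With total counts in place of TMM the log2 ratio of the *HOXB* sum in *AGO2* knockout cells became -0.074. At these depths the 8 untested members could not be followed, and the counts of *HOXC11*, *HOXD3* and *HOXD4* limit what can be said of them.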
